A study of Mus musculus with 10 samples.

Results

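The ephrin, Slit and netrin guidance genes were examined in granulosa cells of mice that lack the progesterone receptor. Members were the genes whose symbol is that of an ephrin, an Eph receptor, a Slit, a Robo receptor, a netrin, an UNC5 receptor, Dcc or Neo1, each read by its brightest probe set with a single gene symbol. This gave 39 members among 19938 genes measured. They comprised 16 ligands and 23 receptors.

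PRKO mice were homozygous for lacZ knocked into the progesterone receptor gene Pgr, which disrupts both receptor isoforms throughout the animal. PR+/- mice had the same knock-in in 1 copy, so the controls were heterozygous and not wild type. All mice were 21 to 23 days old, received 5 IU of equine chorionic gonadotropin and, 44 to 47 h later, 5 IU of human chorionic gonadotropin (hCG). Granulosa cells were released from antral follicles 8 h after hCG, and each of the 5 arrays per genotype held a pool of cells from 3 animals.

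Ephrins are membrane-bound ligands that signal between touching cells: ephrin-A proteins are anchored by a lipid and mainly bind EphA receptor tyrosine kinases, ephrin-B proteins span the membrane and mainly bind EphB receptors, and both partners of a pair can signal into their own cell. Slits are secreted and bind Robo receptors, and netrins attract or repel cells through DCC, neogenin and UNC5 receptors. These systems were first described in growing axons and also shape vessels and epithelia. In the ovary, ephrin-A5 and EphA receptors have been described in mouse granulosa cells, and Slit and Robo genes in the corpus luteum.

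The deposited values are log2 expression, and the 10 arrays had medians of 6.48 to 6.55 and correlated with each other at 0.973 to 0.992. Arrays have no read depth, and the number of pools limits the precision. Pgr itself read 6.69, 6.26, 6.27, 6.15 and 6.90 in PRKO pools 1 to 5, against 6.32, 7.70, 6.07, 7.02 and 7.45 in PR+/- pools 1 to 5. All 5 PRKO pools lay inside the PR+/- range (limma adjusted p = 0.527). How its probes lie relative to lacZ is unknown here, and this reading does not check the genotypes. All 7 granulosa cell markers measured, Foxl2, Fshr, Amh, Amhr2, Inha, Inhba and Nr5a2, lay above 5.87, taken here as the level of dim signal because 95% of 1015 olfactory receptor genes read less. So did 5 of 6 oocyte, 7 of 8 endothelial, 4 of 6 mural cell, 4 of 5 theca and stroma, and 3 of 6 leukocyte markers, so the pools were not free of RNA from other cells. The summed linear signal of the granulosa markers was 12708 to 18266 in PRKO pools and 11659 to 15096 in PR+/- pools. Of the 7 granulosa markers, 5 had an unadjusted p under 0.05, against 13.0% of all genes. Inhba (0.60), Amhr2 (0.33), Foxl2 (0.30) and Inha (0.24) had positive log2 differences, PRKO minus PR+/-, and Fshr a negative one (-0.49), with limma adjusted p-values from 0.148 to 0.361. The part of these markers in the results on guidance genes was not tested. None of the marker genes passed the threshold given below.

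Of the 39 guidance genes, 3 differed between PRKO and PR+/- at a Benjamini-Hochberg adjusted p under 0.05 in limma, adjusted over all genes. Efnb2 and Unc5c were lower in PRKO and Epha5 was higher. That is 7.69% of the members, against 2.46% of all genes tested, and in all genes 1.71% were called lower and 0.752% higher. The members were chosen with earlier results of these data known, so these shares do not test for an excess of calls. The median log2 difference (PRKO minus PR+/-) was 0.02 over the members and -0.02 over all genes. A positive difference was seen in 26 of the 39 members (66.7%), against 44.8% of all genes. Many of these differences were near 0. Of the 30 members with an unadjusted p of at least 0.05, 15 took the other sign when a pool was left out or processing changed. These include members with a negative difference (Epha8, Ephb1, Robo4 and Unc5a), so the count can move both ways and is not firm. In 2 members, Efnb2 and Epha5, the pools of the genotypes did not overlap (5.13%, against 4.42% of all genes). The plot of differences by family shows that the 3 calls fall in 3 different families.

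**Figure D1:**
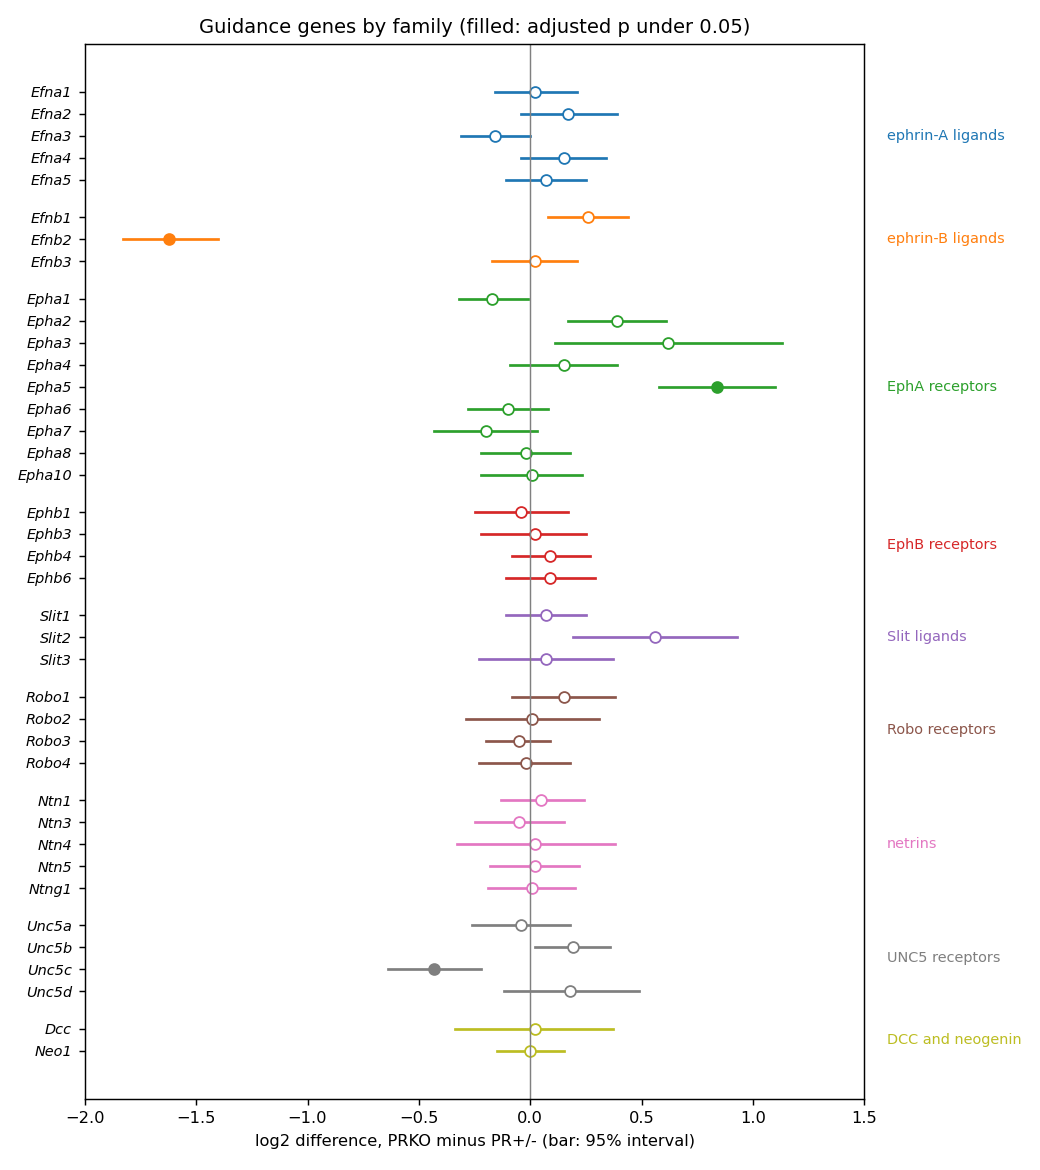
Log2 difference between PRKO and PR+/- (x axis, PRKO minus PR+/-) for each of the 39 guidance genes (rows), grouped and coloured by family. Points are limma estimates from 5 pools per genotype, bars are 95% intervals, and filled points have an adjusted p under 0.05: Efnb2 at -1.62, Unc5c at -0.43 and Epha5 at 0.84.

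Among the ligands, Efnb2 fell 3.07-fold in PRKO. It encodes ephrin-B2, a transmembrane ligand of EphB receptors that also binds EphA4 and marks arterial endothelium. Efnb2 read 8.08, 7.66, 7.83, 8.02 and 8.05 in PRKO pools 1 to 5, against 9.58, 9.35, 9.78, 9.49 and 9.53 in PR+/- pools 1 to 5. Every PRKO pool lay more than 1 log2 unit below every PR+/- pool, and all 10 pools were above the dim level. The means were 7.93 ± 0.18 in PRKO and 9.55 ± 0.16 in PR+/- (SD, n = 5 pools each). This gave a log2 difference of -1.62 (SE 0.10, 95% interval -1.83 to -1.40, limma adjusted p = 3.03e-07). An exact two-sided permutation test over the pools gave p = 0.00794, the smallest that 5 against 5 pools allow.

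Because ephrin-B2 is also an endothelial gene, endothelial markers are given beside it. The summed linear signal of 8 endothelial markers was 828 to 1260 in PRKO pools and 800 to 1103 in PR+/- pools, and none of the 8 was called. Pecam1 had a log2 difference of -0.05 (SE 0.15), Tie1 of -0.07 (SE 0.09) and Cdh5 of -0.33 (SE 0.16). Kdr, the VEGF receptor, had a positive one of 0.41 (SE 0.15, limma adjusted p = 0.220). By its means Kdr was the brightest of the 8 markers in both genotypes, so it weighs most in the sum. It was the only marker of the 8 with a positive difference. The others ran from -0.33 to -0.02, and the median of the 8 was -0.06. In bulk RNA, fewer cells of a type and less RNA per cell cannot be told apart.

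The promoters of the 3 called genes are shown because a steroid receptor was removed and its target sequence can be looked for there. Each run is 300 bases, 5′ to 3′ on the gene's strand, from 250 before to 50 after the RefSeq start in GRCm38.p6. Efnb2 lies at chr8:8661193-8661492 (minus strand), Epha5 at chr5:84417333-84417632 (minus strand) and Unc5c at chr3:141465314-141465613 (plus strand). Capitals mark any match to the motifs described after the sequences.
Efnb2: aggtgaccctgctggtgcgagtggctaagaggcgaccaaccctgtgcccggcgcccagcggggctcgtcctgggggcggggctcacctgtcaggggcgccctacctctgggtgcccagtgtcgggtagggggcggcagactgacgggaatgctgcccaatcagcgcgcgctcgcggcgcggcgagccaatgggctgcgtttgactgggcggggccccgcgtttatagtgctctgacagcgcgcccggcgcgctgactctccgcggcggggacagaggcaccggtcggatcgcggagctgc
Epha5: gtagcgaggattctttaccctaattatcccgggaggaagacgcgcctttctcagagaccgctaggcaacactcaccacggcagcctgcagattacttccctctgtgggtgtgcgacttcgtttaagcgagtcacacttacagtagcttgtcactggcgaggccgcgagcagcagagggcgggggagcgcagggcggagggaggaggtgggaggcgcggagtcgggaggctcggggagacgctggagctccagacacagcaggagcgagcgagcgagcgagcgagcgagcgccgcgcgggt
Unc5c: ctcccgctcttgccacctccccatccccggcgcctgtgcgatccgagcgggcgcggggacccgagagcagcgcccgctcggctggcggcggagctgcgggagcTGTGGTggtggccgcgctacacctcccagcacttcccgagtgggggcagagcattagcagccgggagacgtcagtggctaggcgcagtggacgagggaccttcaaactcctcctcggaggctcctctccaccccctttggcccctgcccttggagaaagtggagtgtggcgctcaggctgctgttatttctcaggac

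The motifs, searched on both strands, were ACANNNTGT, the core of the palindromic element bound by progesterone and glucocorticoid receptors, its single-arm form TGTTCT (reverse complement AGAACA), the RUNX motif TGTGGT, the AP-1 motif TGANTCA, the CREB motif TGACGTCA and the NR5A receptor motif AAGGTCA. The palindrome and the single-arm form can overlap. The Efnb2 and Epha5 windows held none of these letters and the Unc5c window held TGTGGT, starting 147 bases before the gene's start. Over the 39 windows of the 34 members with a RefSeq promoter, ACANNNTGT was found in 1 (2.56%, in Ntn5) and TGTTCT in 0, against 6.85% and 19.0% of all 32851 windows. TGTGGT was found in 4 member windows (10.3%, against 16.8% of all). The called windows were rich in G and C, at 72.3% for Efnb2, 64.3% for Epha5 and 68.3% for Unc5c, against a median of 52.7%. The part of base composition in the motif shares was not tested. Sequence outside the windows was not searched, so a missing match does not show that a gene lacks such elements.

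The other ephrin-B ligands did not follow Efnb2. Efnb1, which encodes ephrin-B1, read 8.51, 8.56, 8.43, 8.51 and 8.29 in PRKO pools 1 to 5, against 8.30, 7.95, 8.30, 8.17 and 8.28 in PR+/- pools 1 to 5. Only PRKO pool 5 overlapped the PR+/- range. The log2 difference was 0.26 (SE 0.08, limma adjusted p = 0.159), which did not pass. Efnb3, the third of the ephrin-B ligands, averaged 6.48 ± 0.12 in PRKO and 6.46 ± 0.17 in PR+/- (SD, n = 5 pools each). Within arrays, the PRKO minus PR+/- difference of Efnb2 minus that of Efnb1 was -1.88 log2 units, and minus that of Efnb3 it was -1.64. Both gave an adjusted p of 0.0103 by exact permutation over the pools. The adjustment was over the 13 comparisons of a called gene with another member of its family, chosen after the calls were known. Before adjustment the permutation p was 0.00794 for both, the smallest that 5 against 5 pools allow. Each called gene was picked by its call on these same arrays. The p-values of the 13 comparisons therefore give no separate support for a change.

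None of the 5 ephrin-A ligands passed, and their log2 differences ran from -0.16 to 0.17. Efna5, which encodes ephrin-A5, averaged 8.16 ± 0.16 in PRKO and 8.09 ± 0.08 in PR+/- (SD, n = 5 pools each), with a 95% interval of the difference of -0.11 to 0.25. Efna1, Efna3 and Efna4, which follow each other along chromosome 3 with no other protein-coding gene between them in RefSeq, had differences of 0.02, -0.16 and 0.15. Efna3 was dim in both genotypes, with means of 5.25 in PRKO and 5.40 in PR+/-. Efna2 had the most positive value of the family, 0.17 (SE 0.10).

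Among the EphA receptors, Epha5 rose 1.79-fold in PRKO. It encodes EphA5, a receptor tyrosine kinase for ephrin-A ligands. Epha5 read 8.03, 7.76, 7.72, 7.69 and 7.70 in PRKO pools 1 to 5, against 6.80, 7.32, 6.60, 6.90 and 7.11 in PR+/- pools 1 to 5. All PRKO pools lay above all PR+/- pools, and 4 of the 5 PRKO pools were within 0.1 of each other while the PR+/- pools were spread more widely. The means were 7.78 ± 0.14 in PRKO and 6.94 ± 0.28 in PR+/- (SD, n = 5 pools each). This gave a log2 difference of 0.84 (SE 0.12, 95% interval 0.58 to 1.10, limma adjusted p = 0.00105). The exact two-sided permutation test gave p = 0.00794.

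Epha2 and Epha3 also read higher in PRKO but did not pass. Epha2, a receptor of ephrin-A1 that is common in epithelia, read 7.42, 7.28, 7.44, 7.53 and 7.64 in PRKO pools 1 to 5, against 7.14, 6.78, 7.10, 7.00 and 7.36 in PR+/- pools 1 to 5. PR+/- pool 5 reached into the PRKO range. The log2 difference was 0.39 (SE 0.10, limma adjusted p = 0.0696). Of 10 fits that each left out 1 pool, 1 passed, the one without PR+/- pool 5 (0.46, limma adjusted p = 0.0269), and the adjusted p reached 0.176 in the others.

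Epha3, a receptor of ephrin-A5, read 7.31, 6.70, 6.55, 7.86 and 6.72 in PRKO pools 1 to 5, against 6.99, 5.96, 6.19, 6.29 and 6.61 in PR+/- pools 1 to 5. It varied more between pools of a genotype than any other member, with a within-genotype SD of 0.48 against a median of 0.16, and the genotypes overlapped. The log2 difference was 0.62 (SE 0.24, limma adjusted p = 0.267), and 0.41 without PRKO pool 4.

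The remaining EphA receptors had log2 differences between -0.20 and 0.15. Epha7, the lowest, averaged 8.42 ± 0.09 in PRKO and 8.62 ± 0.25 in PR+/-, and Epha4, which can also bind ephrin-B2, averaged 8.10 ± 0.11 in PRKO and 7.95 ± 0.26 in PR+/- (SD, n = 5 pools each). Epha1 was dim in both genotypes, at 5.46, 5.55, 5.54, 5.45 and 5.36 in PRKO pools 1 to 5, against 5.45, 5.71, 5.64, 5.66 and 5.73 in PR+/- pools 1 to 5. Only PR+/- pool 1 overlapped the PRKO range, and the log2 difference of -0.17 (SE 0.07, limma adjusted p = 0.345) did not pass. Epha6 was the dimmest member (means of 4.05 in PRKO and 4.15 in PR+/-), and Epha8 and Epha10 stood at -0.02 and 0.01.

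Within arrays, the difference of Epha5 exceeded those of Epha4, Epha7, Epha8 and Epha10 by 0.69 to 1.04 log2 units (exact permutation adjusted p = 0.0103 for each over the 13 comparisons, with pools of the genotypes not overlapping). It exceeded that of Epha2 by 0.45 (exact permutation adjusted p = 0.0688) and that of Epha3 by 0.22 (exact permutation adjusted p = 0.548). A change of Epha5 unlike those of Epha2 and Epha3 was not shown. Epha5 was picked by its call on these same arrays, so the lower p-values give no separate support for its change either. Epha1 and Epha6 were dim, and nothing is read from their comparison with Epha5.

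EphB receptors are the main partners of ephrin-B2. None of the 4 analysed here, Ephb1, Ephb3, Ephb4 and Ephb6, passed, and their differences ran from -0.04 to 0.09. No probe set was annotated to Ephb2, another EphB receptor, so it could not be read. Ephb4, the venous endothelial receptor that pairs with ephrin-B2 in vessels, read 8.42, 8.81, 8.58, 8.40 and 8.51 in PRKO pools 1 to 5, against 8.39, 8.53, 8.46, 8.43 and 8.44 in PR+/- pools 1 to 5. The PR+/- pools all lay inside the PRKO range, apart from pool 1, which was just below it. The log2 difference was 0.09, with a 95% interval of -0.08 to 0.27. Ephb1, dim in both genotypes, Ephb3 and Ephb6, whose kinase domain is inactive, had differences of -0.04, 0.02 and 0.09, and their intervals lay between -0.25 and 0.29.

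**Figure D2:**
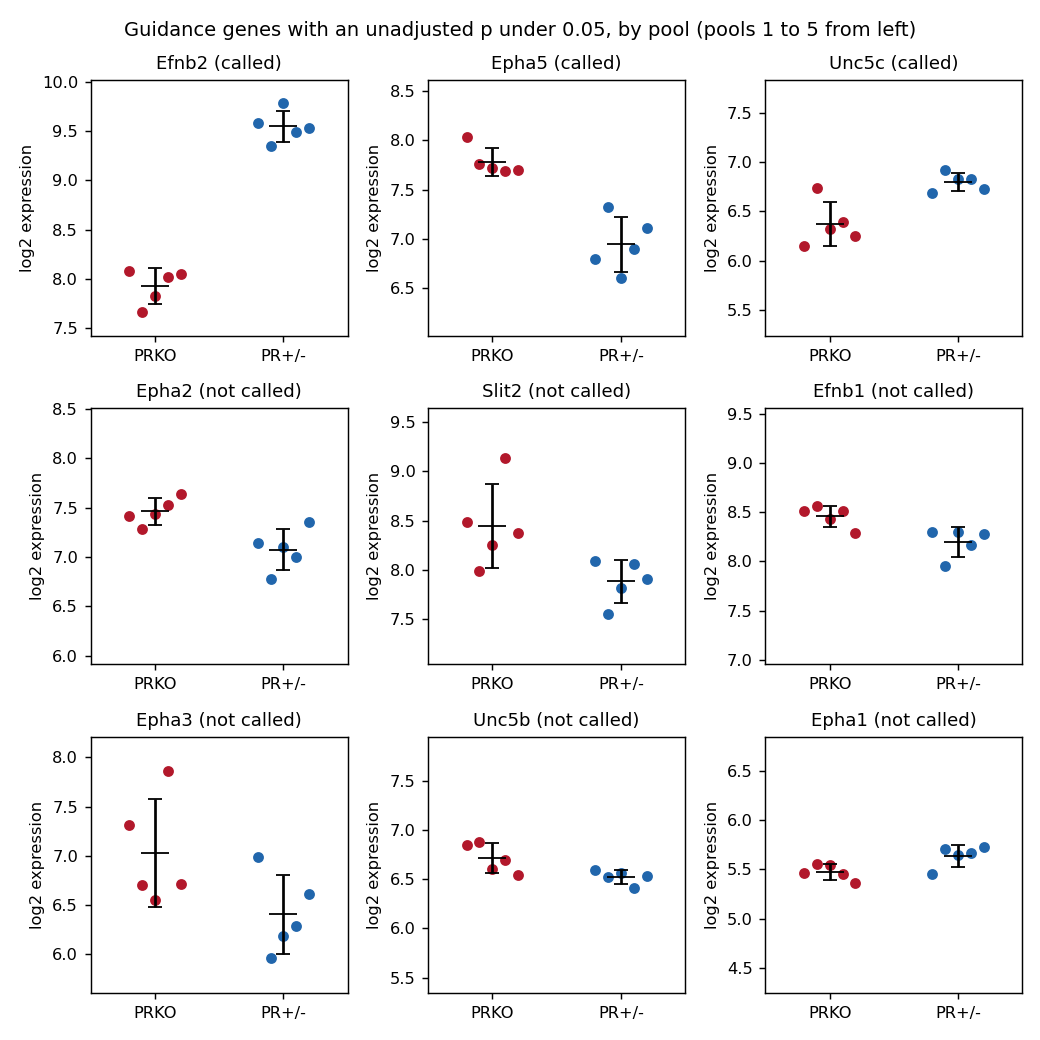
Log2 expression (y axis, the same span in every panel) of the 9 guidance genes with an unadjusted p under 0.05, by genotype (PRKO red, PR+/- blue), with pools 1 to 5 from left to right and the mean ± SD in black. Efnb2 and Epha5 are separated in all 10 pools, PRKO pool 2 of Unc5c lies with the PR+/- pools, and PRKO pool 4 stands high in Slit2 and Epha3.

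In the Slit and Robo families, no gene passed. Slit2, a secreted ligand of Robo1 and Robo2, read 8.49, 7.99, 8.25, 9.13 and 8.37 in PRKO pools 1 to 5, against 8.09, 7.55, 7.82, 8.06 and 7.91 in PR+/- pools 1 to 5. PRKO pool 2 overlapped the PR+/- range and PRKO pool 4 was the highest by 0.64. The log2 difference was 0.56 (SE 0.17, 95% interval 0.19 to 0.93, limma adjusted p = 0.136), and 0.39 without PRKO pool 4. Slit3 averaged 7.65 ± 0.36 in PRKO and 7.58 ± 0.12 in PR+/-, and Slit1 5.90 ± 0.10 in PRKO and 5.83 ± 0.16 in PR+/-, close to the dim level (SD, n = 5 pools each).

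Of the PRKO pools, pool 4 was the highest for 7 of the 39 guidance genes, against 13 each for pools 2 and 3. Besides Slit2 and Epha3, the 7 include the UNC5 receptor Unc5d, at 9.37 against 8.44 to 8.95 in the other PRKO pools and 8.53 to 8.70 in PR+/- pools. In that pool the summed linear signal of the 8 endothelial markers was 1260 and that of 6 mural cell markers 2054, the highest of the 10 pools for both. The sum of the 7 granulosa markers was 12708, the lowest of the PRKO pools. In PRKO pool 2 the endothelial sum was 895 and the mural sum 1959. The sum of the theca and stroma markers was 2656 in PRKO pool 2 and 2377 in PRKO pool 4. Slit2 (7.99) and Unc5d (8.44) were lowest in pool 2 among the PRKO pools, and Epha3 was 6.70 there. Tek among the endothelial, Rgs5 and Des among the mural and Lum among the theca and stroma markers were under the dim level. The part of these markers in the Slit2, Epha3 and Unc5d values was not tested.

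The Slit receptors Robo1 and Robo2 were bright in every pool. Robo1 read from 10.86 to 11.31 in PRKO (median 11.15) and from 10.67 to 11.12 in PR+/- (median 11.02), a log2 difference of 0.15 (SE 0.11, limma adjusted p = 0.609). Robo2 averaged 11.02 ± 0.22 in PRKO and 11.02 ± 0.30 in PR+/- (SD, n = 5 pools each), and its 95% interval was -0.29 to 0.31. In PR+/- pools 1 and 3 both genes read lower than in PR+/- pools 2, 4 and 5. Robo3, which tunes Slit responses of crossing axons, and the endothelial Robo4 lay at or under the dim level, with differences of -0.05 and -0.02.

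**Figure D3:**
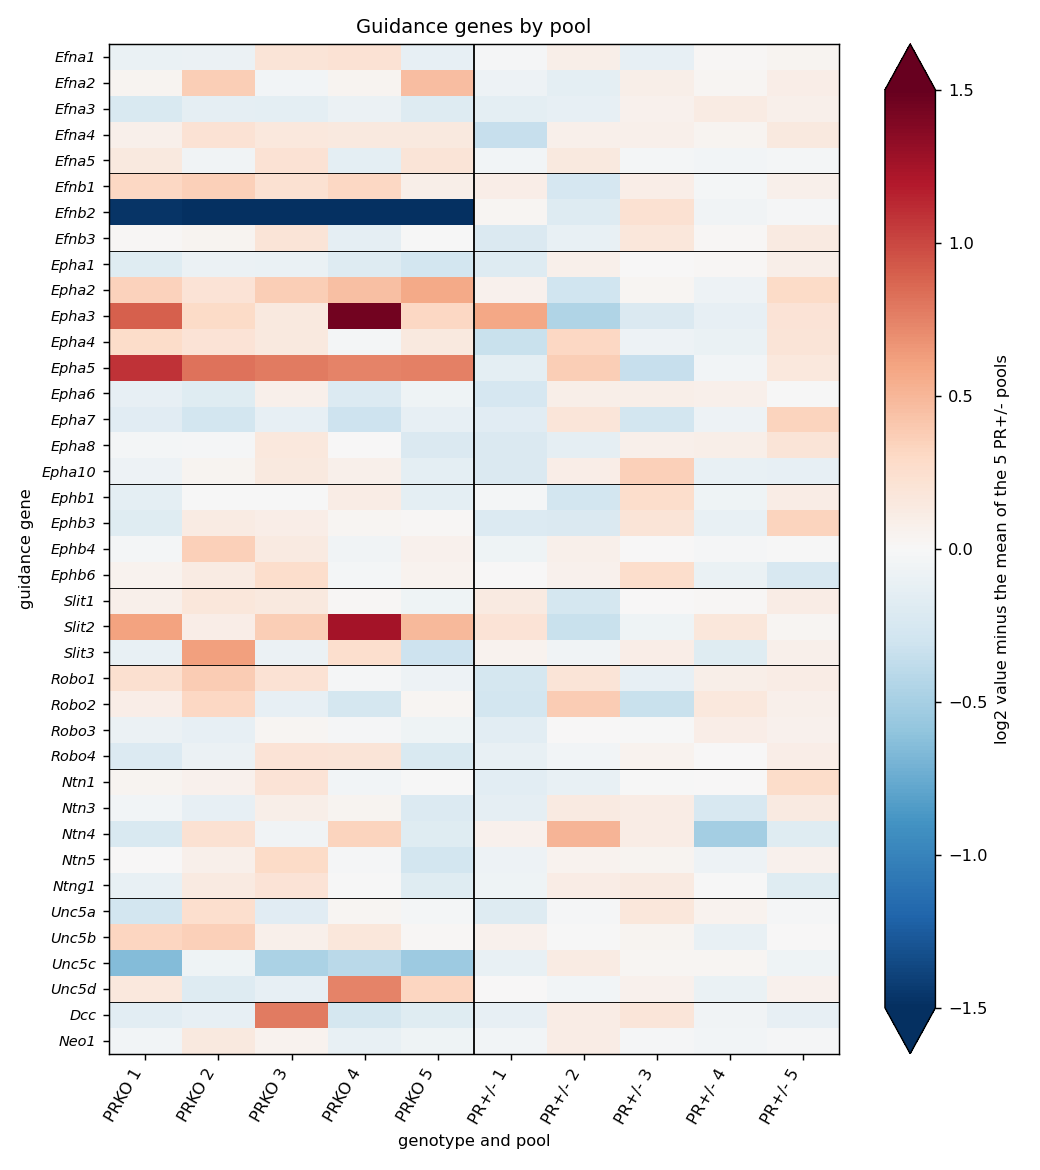
Log2 value of each guidance gene (rows) in each pool (columns, PRKO left of the line and PR+/- right of it) minus the mean of the 5 PR+/- pools, with red above and blue below that mean. Efnb2 is blue and Epha5 red in all 5 PRKO pools, Unc5c is blue in all 5 PRKO pools and palest in pool 2 (6.74, against a PR+/- mean of 6.80), and Slit2, Epha3 and Unc5d are deepest red in PRKO pool 4.

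In the netrin system, the receptor Unc5c was lower in PRKO by 1.35-fold. It encodes a repulsive netrin receptor that can also trigger cell death when no netrin is bound. Unc5c read 6.15, 6.74, 6.32, 6.39 and 6.25 in PRKO pools 1 to 5, against 6.69, 6.92, 6.83, 6.83 and 6.73 in PR+/- pools 1 to 5. PRKO pool 2 lay inside the PR+/- range and the other 4 PRKO pools below it. The log2 difference was -0.43 (SE 0.10, 95% interval -0.64 to -0.22, limma adjusted p = 0.0347, exact two-sided permutation p = 0.0238). The call was lost without any 1 of 9 pools (PR+/- 1 to 5, PRKO 1, 3, 4 or 5, limma adjusted p up to 0.0968). It stood without PRKO pool 2, at -0.52 with an adjusted p of 0.00217.

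The other UNC5 receptors had differences from -0.04 to 0.19. Unc5b, a netrin receptor of endothelial tip cells, read 6.85, 6.88, 6.60, 6.69 and 6.54 in PRKO pools 1 to 5, against 6.59, 6.52, 6.56, 6.41 and 6.53 in PR+/- pools 1 to 5. PRKO pool 5 overlapped the PR+/- range, and the log2 difference of 0.19 (SE 0.08, limma adjusted p = 0.328) did not pass. Within arrays, the difference of Unc5c was below those of Unc5a, Unc5b and Unc5d, by values of -0.39, -0.62 and -0.61 (exact permutation adjusted p = 0.0103, 0.0103 and 0.0469 over the 13 comparisons). The comparison with Unc5d stayed under 0.05 in 1 of 10 runs that each left out 1 pool (exact permutation adjusted p up to 0.0938).

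None of the 5 netrin ligands passed. Netrin-1 (Ntn1), netrin-3 (Ntn3), the basement membrane netrin-4 (Ntn4), Ntn5 and the lipid-anchored netrin-G1 (Ntng1) had log2 differences between -0.05 and 0.05. Ntn4 varied most, from 7.05 to 7.61 in PRKO and from 6.77 to 7.79 in PR+/-. Neogenin (Neo1), a receptor of netrins and of repulsive guidance molecules, read 10.15, 10.33, 10.24, 10.08 and 10.12 in PRKO pools 1 to 5, against 10.14, 10.30, 10.17, 10.15 and 10.17 in PR+/- pools 1 to 5. Its 95% interval of -0.15 to 0.15 is among the narrowest of the members. Dcc, the attractive netrin receptor, was dim in both genotypes, with means of 5.57 in PRKO and 5.56 in PR+/-.

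Of the 36 members that did not pass, 33 had a 95% interval inside a 1.5-fold change in either direction. The exceptions were Epha2, Epha3 and Slit2, whose intervals reached past a 1.5-fold increase. The 30 members with an unadjusted p of at least 0.05 had differences from -0.20 to 0.18, of which 23 lay within 0.1 of 0. An unadjusted p under 0.05 was found for 9 members (23.1%), against 13.0% of all genes. In 8 members, Efna3, Epha1, Epha6, Ephb1, Robo3, Robo4, Ntn5 and Dcc, both means were under the dim level.

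Signalling partners of the guidance genes were read in 4 lists with 68 genes measured. Of these, 4 were called (5.88%), all higher in PRKO, against 2.46% of all genes called and 0.752% called higher. The lists were drawn up with earlier results of these data known, so these shares do not test for an excess of calls. The median log2 difference of the partners was 0.01. Among 19 partners of netrin, UNC5 and neogenin, 2 were called. Rgmb, a repulsive guidance molecule that binds neogenin and acts as a co-receptor of bone morphogenetic proteins, read 9.17, 9.01, 8.89, 9.03 and 9.11 in PRKO pools 1 to 5, against 7.85, 7.97, 8.27, 7.92 and 8.35 in PR+/- pools 1 to 5. The groups did not overlap, with a log2 difference of 0.97 (SE 0.10, limma adjusted p = 5.60e-05), while Rgma stood at -0.11 (SE 0.07).

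Dapk1, a death-associated kinase that acts downstream of UNC5 receptors, read 8.76, 8.50, 8.87, 8.77 and 8.73 in PRKO pools 1 to 5, against 8.37, 8.01, 8.27, 8.22 and 8.27 in PR+/- pools 1 to 5. All PRKO pools were above all PR+/- pools (log2 difference 0.50, SE 0.09, limma adjusted p = 0.00480).

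Among 14 effectors of Slit and Robo, Gpc1 was the 1 gene called. It encodes glypican-1, a heparan sulfate proteoglycan that binds Slits. It read 8.28, 8.52, 8.22, 8.50 and 8.53 in PRKO pools 1 to 5, against 8.02, 7.81, 7.91, 8.03 and 8.11 in PR+/- pools 1 to 5, with no overlap (log2 difference 0.43, SE 0.09, limma adjusted p = 0.0129). The actin regulator Enah had a difference of -0.20 (SE 0.07, limma adjusted p = 0.209).

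Among 24 genes that act with Eph receptors, Inppl1 was called. It encodes SHIP2, a phosphoinositide phosphatase that binds EphA2. It read 10.37, 10.44, 10.42, 10.30 and 10.34 in PRKO pools 1 to 5, against 10.01, 9.93, 10.02, 10.14 and 10.17 in PR+/- pools 1 to 5, with no overlap. Its log2 difference was 0.32 (SE 0.07, limma adjusted p = 0.0217), which no longer passed when PR+/- pool 1, 2 or 3 was left out, or PRKO pool 1 or 2 (up to 0.0610). Sipa1l1, a Rap regulator, had a difference of -0.26 (SE 0.07, limma adjusted p = 0.101) and Nck1 one of 0.23 (SE 0.07, limma adjusted p = 0.157). Neither passed, although the pools of the genotypes did not overlap for either gene, as was seen in 4.42% of all genes.

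In the list of ephrin reverse signalling and shedding, 0 of 11 genes measured were called in limma, with 1 at an unadjusted p under 0.05. That gene was Stat3, at -0.28 (SE 0.08, limma adjusted p = 0.127), and Ap2m1 followed at -0.11 (SE 0.07). Adam10, a protease that cleaves ephrins, had a difference of 0.01, and Pick1 and Sdcbp, whose PDZ domains bind ephrin-B tails, stood at 0.00 and 0.01.

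**Figure D4:**
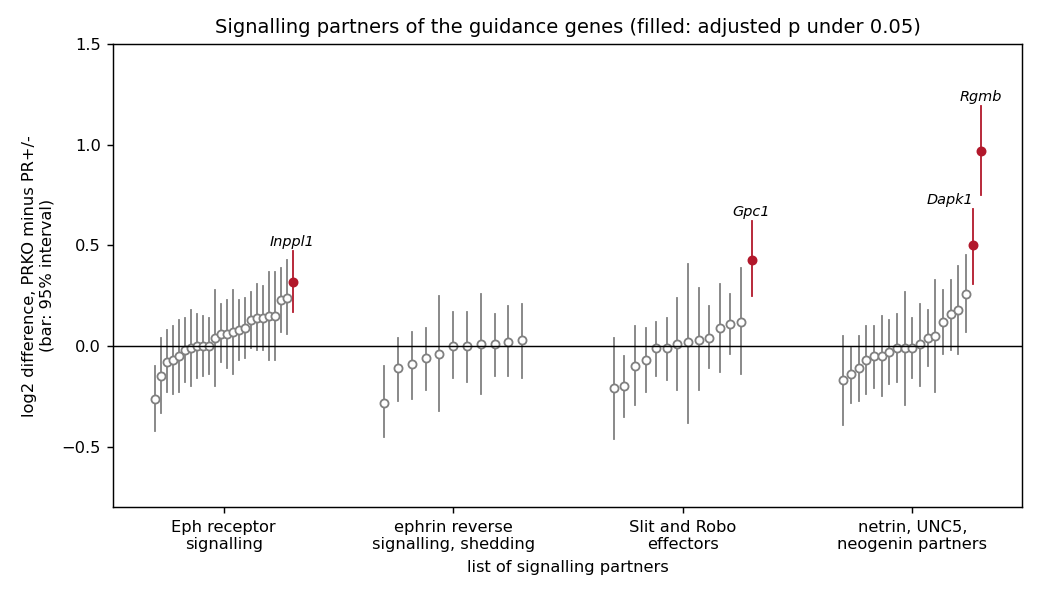
Log2 difference between PRKO and PR+/- (y axis, PRKO minus PR+/-) for the genes measured in each of 4 lists of signalling partners (x axis), sorted within each list, with limma's 95% intervals as bars. Filled red points have an adjusted p under 0.05: Inppl1 at 0.32, Gpc1 at 0.43, Dapk1 at 0.50 and Rgmb at 0.97, with 0 called in the list of reverse signalling and shedding.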

How the data were processed

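Biotin-labelled cRNA from 10 granulosa cell pools was hybridized to whole-transcript arrays, per the labels' protocols. The authors deposited log2 expression, and Partek is named without a version, per the submitters' processing notes. Their normalization and summarization steps were not stated in the material used. The 35557 probe sets were named through GEO's platform annotation (21789 with 1 symbol, 1621 with several, 12147 with none), and the brightest probe set per symbol was kept.

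PRKO was compared with PR+/- over all 19938 genes with limma 3.58.1 in R 4.3.3, without a block. Differences are PRKO minus PR+/-. Exact permutation tests used scipy 1.17.1. Promoters are RefSeq sequences of GRCm38.p6. The members and lists were chosen with earlier results of these data known. Members with an unadjusted p under 0.05 are named with every pool, and of each partner list the called genes, or else the 2 with the smallest p. Rgma, Enah, Sipa1l1, Nck1, Adam10, Pick1 and Sdcbp and the endothelial and granulosa genes were named with values after their values were seen. Other settings tried were quantile normalization, median centring, array weights, an intensity trend or a robust prior in limma, a block for the replicate number, leaving out the dimmest genes (30th percentile), other probe set choices, other thresholds and leaving out each pool. The labels give no batch.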

Additional observations from a re-analysis of the deposited data

Results flagged for a closer look

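In a group of 5 pools, a pool was marked when its gap to the nearest other pool was over 0.71 of the group's range (Dixon's test). Of 94 groups examined, 7 held such a pool (7.45%), against about 5% expected by chance. In PRKO, Epha5 was 8.03 in pool 1 against 7.69 to 7.76 in the others, so the marked pool was further from the PR+/- pools than the rest, and without it the difference was 0.77. Dcc was 6.34 in PRKO pool 3, above the dim level, against 5.30 to 5.44 in the other PRKO pools. Sipa1l1 was 8.32 in PRKO pool 3 against 8.56 to 8.64. In PR+/-, pool 1 was low for Efna4 (7.01 against 7.40 to 7.51) and for the dim Epha6 (3.90 against 4.14 to 4.24). PR+/- pool 2 was high for Efna5 (8.24 against 8.05 to 8.06) and Neo1 (10.30 against 10.14 to 10.17).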

How the results depend on the processing

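Efnb2 and Epha5 kept their direction and call in every alternative run, with log2 differences of -1.67 to -1.55 and 0.75 to 0.93 when a pool was left out. The count of guidance genes lower in PRKO, 2 as reported, was 1 to 2 without single pools, and 1 over all probe sets, at an adjusted p under 0.01 and with a fold of at least 1.5, Unc5c being the gene lost (adjusted p = 0.0907 over all probe sets, where more features were tested). The count higher, 1 as reported, was 1 to 2 without single pools. With the replicate number as a block it was 3, with Epha2 (limma adjusted p = 0.0184) and Slit2 (0.0171) added. Under that block the count of partners called went from 4 to 3, Inppl1 being the gene lost (limma adjusted p = 0.0601). Same-numbered pools of the genotypes correlated in their deviations at 0.174, 0.224 and 0.317 for numbers 1 to 3, above their correlations with other numbers, but at -0.103 and -0.0526 for numbers 4 and 5, which correlated better with another number. The labels give no shared source, and the numbers were not taken to pair the pools. Genes differing in all, 491 as reported, were 258 at an adjusted p under 0.01 (210 lower, 48 higher) and 220 with a fold of at least 1.5 (180 lower, 40 higher). Genes higher, 150 as reported, were 90 over all probe sets and 85 to 161 without single pools (92, 85 and 95 without PR+/- pool 1, 3 or 4, 89 and 93 without PRKO pool 1 or 5). The cause was not tested. Partners called, 4 as reported, were 2 at an adjusted p under 0.01 and 1 with a fold of at least 1.5. Among the granulosa markers, Foxl2 passed without PRKO pool 4 (limma adjusted p = 0.0416) and Fshr without PRKO pool 3 (0.0448). Amhr2 passed without PR+/- pool 2 (limma adjusted p = 0.0263) and with the replicate number as a block (0.0453). No direction reversed among the members with an unadjusted p under 0.05, the partners, Kdr and the 5 granulosa markers named with a p. Of the other 30 members, 15 had the other sign in some setting, all with reported differences of at most 0.07 in size, such as Slit3 (0.07, and -0.07 to 0.17 over the settings) and Dcc (0.02, and -0.18 to 0.08). The within-array comparisons, rerun without each pool as a choice made after seeing the data, kept their direction, and those other than Epha5 with Epha2 or Epha3 and Unc5c with Unc5d stayed under 0.05 (exact permutation adjusted p up to 0.0206).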

Other observations

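Further probe sets of the members gave these values, adjusted over all probe sets. A dimmer probe set of Unc5d averaged 7.22 ± 0.53 in PRKO and 7.15 ± 0.16 in PR+/- (SD, n = 5 pools each), and PRKO pool 4 was again the highest, at 7.92. Those of Ntng1, Epha10 and Ephb1 had log2 differences of 0.03, -0.08 and -0.01. Ntng2 was read only by a probe set shared with 6530402F18Rik, which averaged 6.59 in both genotypes. Slit2 and Slit3 contain the microRNA genes Mir218-1 and Mir218-2. The probe set of Mir218-1 averaged 5.53 ± 0.30 in PRKO and 5.06 ± 0.30 in PR+/- (SD, n = 5 pools each, difference 0.47, limma adjusted p = 0.317), and that of Mir218-2 averaged 5.37 ± 0.12 in PRKO and 5.31 ± 0.17 in PR+/-, all under the dim level.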
